A study of Mus musculus with 9 samples.

Results

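The genes described here are 32 mouse genes that encode ion channels, calcium-handling proteins and connexins of the heart, out of 21911 protein-coding genes with a start site in GENCODE M21. They were taken by name, and the CHD7 peaks linked to them were those whose midpoint fell in the regulatory domain of a gene. This domain runs from 5 kb upstream to 1 kb downstream of the transcription start site (TSS) and is extended on each side to the neighbouring gene's basal domain, by up to 1 Mb. In all, 15 of the 3761 CHD7 peaks were linked to 11 of the 32 genes.

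The peaks come from CUT&RUN, in which an antibody tethers a nuclease to a chromatin protein so that the DNA beside it is cut and released for sequencing. The cells were wild-type (WT) cardiac progenitor (CP) cells at day 5 of differentiation from mouse embryonic stem cells to cardiomyocytes, with 500000 cells per assay. There were 3 biological replicates with anti-CHD7, 3 with anti-IgG and 3 inputs, and no sample was mutant or treated. The deposited peaks are 1 list for the 3 anti-CHD7 replicates, with positions and no height, count or P-value, so the depth, the error of a single peak and the spread between replicates are unknown. The list gives no expression, so that neither the CP identity of the cells nor the activity of a channel gene could be checked in it. Cells grown in culture are a model of the progenitors of the embryo.

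CHD7 is an ATP-dependent chromatin remodeller that moves nucleosomes, and it is found at many enhancers as well as at promoters. In a working cardiomyocyte, sodium and calcium channels open in turn during the action potential, potassium channels end it, and connexins pass the current to the next cell. Calcium entering through the L-type channel opens the ryanodine receptor of the sarcoplasmic reticulum, and the released calcium drives contraction until it is pumped back or exchanged for sodium.

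The sequences below are from 5 of the 15 peaks. Chosen were the peak nearest to the TSS of its gene (Kcnj3) and the widest peak (Jph2), the last after its width was seen. The other 3 had most matches to motifs of cardiac and mesodermal transcription factors (Kcnj5, Kcnd2 and Ryr2). Each sequence is 200 bases of mm10 on the strand of the gene, written 5′ to 3′. Capitals mark matches on either strand to 9 such motifs, that of the early mesodermal CDX factors among them. For Kcnj3 it is the stretch that ends at the base before the TSS, chr2:55435770-55435969 on the plus strand, with a T-box match (AGGTGT, here on the opposite strand). For the others the stretch is centred on the midpoint of the peak. The Kcnj5 stretch, chr9:32348361-32348560 on the minus strand, holds a pair of MEIS matches (TGACAG). The Kcnd2 stretch, chr6:21675441-21675640 on the plus strand, holds a CDX match (CATAAA, on the opposite strand) and a TEAD match (GGAATG, on the opposite strand). The Ryr2 stretch, chr13:12030048-12030247 on the minus strand, holds a CDX and an NKX2 match (CACTTNA). The Jph2 stretch, chr2:163398111-163398310 on the minus strand, holds none of the 9 motifs.
Kcnj3: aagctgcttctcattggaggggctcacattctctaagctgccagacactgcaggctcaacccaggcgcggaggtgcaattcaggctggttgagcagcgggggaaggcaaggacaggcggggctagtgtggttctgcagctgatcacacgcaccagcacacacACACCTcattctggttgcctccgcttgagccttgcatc
Kcnj5: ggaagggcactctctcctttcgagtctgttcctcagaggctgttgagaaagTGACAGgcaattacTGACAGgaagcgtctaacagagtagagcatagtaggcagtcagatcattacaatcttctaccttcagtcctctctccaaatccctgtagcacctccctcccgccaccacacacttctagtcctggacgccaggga
Kcnd2: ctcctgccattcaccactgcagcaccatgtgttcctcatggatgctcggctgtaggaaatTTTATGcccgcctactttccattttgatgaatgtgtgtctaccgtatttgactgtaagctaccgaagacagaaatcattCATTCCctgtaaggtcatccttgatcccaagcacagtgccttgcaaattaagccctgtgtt
Ryr2: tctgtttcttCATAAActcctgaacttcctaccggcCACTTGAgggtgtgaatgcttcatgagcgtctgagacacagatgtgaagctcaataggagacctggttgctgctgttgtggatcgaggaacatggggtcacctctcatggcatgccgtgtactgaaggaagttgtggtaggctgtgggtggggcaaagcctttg
Jph2: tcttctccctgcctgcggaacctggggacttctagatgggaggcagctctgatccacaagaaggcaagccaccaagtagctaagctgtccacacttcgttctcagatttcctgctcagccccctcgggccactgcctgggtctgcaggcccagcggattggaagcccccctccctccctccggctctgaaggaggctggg

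At least 1 CHD7 peak lay in the domain of 11 of the 32 genes (34.4%, Wilson 95% confidence interval 20.4 to 51.7% for counting error only). Among all genes the share was 22.7% (4979 of 21911). The 32 genes have long domains, with a median of 245 kb against 90.2 kb for all genes, and a long domain holds more peaks. Among all genes the share with a peak rose from 8.88% for domains of up to 50 kb to 48.1% for those of 500 to 1000 kb, and was 40.7% above that. The 500 genes nearest in domain length to each of the 32 had a peak in 33.6% of cases, which corresponds to 10.8 genes with a peak where 11 were counted. The number of linked peaks, 15, likewise stood beside 16.4 from genes of like domain length. In peaks per Mb of domain the value was 0.908 (exact Poisson interval 0.508 to 1.5, over 16.5 Mb), and over all genes it was 1.48. The value of all genes was not matched for domain length. In these extended domains, the channel and calcium genes as a list had a peak about as often as other genes of like domain length. In the basal domain alone, without the extension, 3 of the 32 had a peak (9.38%), where the other genes, whose basal domains have the same length, gave 1.01 (3.15%), a difference that was not tested.

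**Figure D1:**
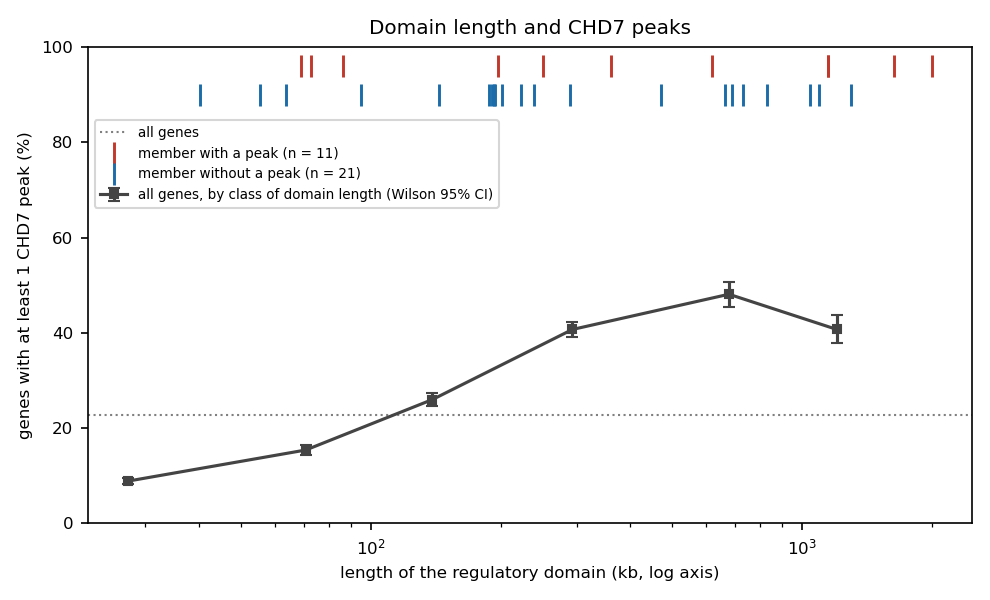
Share of genes with at least 1 CHD7 peak (vertical axis, percent) against the length of the regulatory domain (horizontal axis, kb, log scale). Squares are all genes in 6 classes of length, at the median length of the class, with Wilson 95% confidence intervals; the dotted line is the share of all 21911 genes, 22.7%. Ticks at the top mark the domain length of each of the 32 genes, 11 with a peak in red and 21 without in blue, and both rows run over the short and the long domains.

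Multiple peaks were found at 3 of the 32 genes (9.38%), Ryr2 with 3 and Jph2 and Gja1 with 2 each, and the share of all genes with at least 2 peaks was 5.88%. Ryr2 alone had 3 (3.12% of the list, against 1.75% of all genes with at least 3). Neither of these shares of all genes was matched for domain length. Among genes of like domain length, 5.6% had as many peaks as Ryr2 or more, 7% as many as Jph2 and 16% as many as Gja1. The other 8 genes with a peak had a single one. A peak lay within 1 kb of the TSS at Jph2 and Kcnj3, 2 of 32 genes (6.25%, against 2.08% of all genes). Within 5 kb Kcnj5 was added, which gave 9.38% of the list against 4.09% of all genes. Counts this small leave wide intervals, and no test was made of these differences.

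The starts of other transcripts of the same genes added more. A peak midpoint lay within 5 kb of the TSS of any annotated transcript at 6 of the 32 genes (18.8%, against 6.03% of all genes): Jph2, Kcnj3, Kcnj5, Gjc1, Cacna1g and Cacna1d. Within 1 kb of any such TSS the genes were again Jph2 and Kcnj3 (6.25%, against 2.87% of all genes). Genes with many transcripts have more start sites in this count, and their number was not matched.

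**Figure D2:**
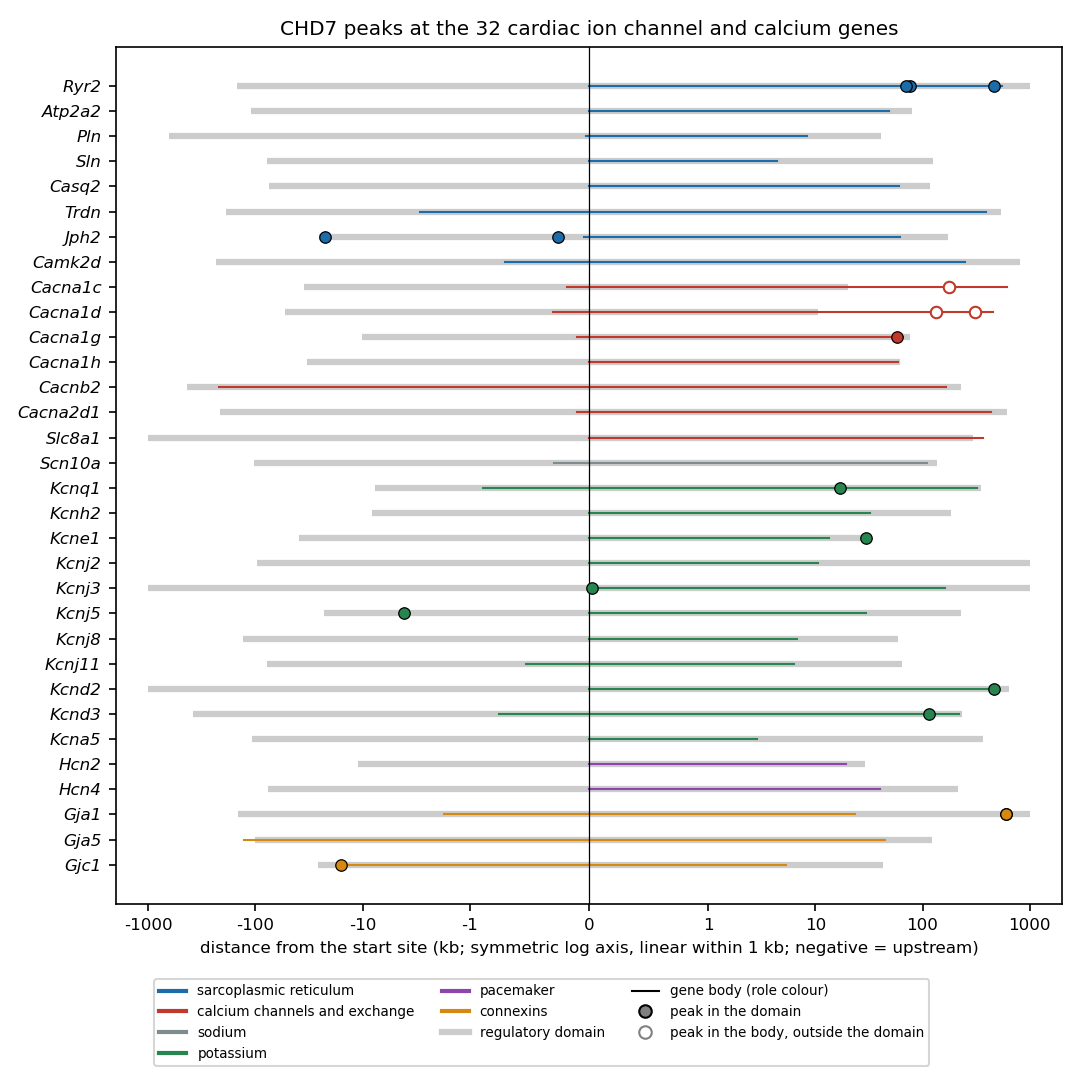
Position of each CHD7 peak from the TSS of its gene (horizontal axis, kb, symmetric log scale that is linear within 1 kb, upstream to the left) for the 32 genes (vertical axis), ordered and coloured by role. Grey bars are regulatory domains, thin lines gene bodies, filled circles the 15 peaks in domains (the 2 at Gja1 and 2 of the 3 at Ryr2 nearly coincide) and open circles the 3 peaks in the bodies of Cacna1c and Cacna1d outside their domains. Only Kcnj3 and Jph2 have a peak within 1 kb of the start.

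Of the 8 genes of the sarcoplasmic reticulum, Ryr2 and Jph2 had a peak, where genes of like domain length gave 2.97. They held 5 of the 15 peaks between them. Ryr2 encodes the ryanodine receptor, the calcium release channel of the reticulum. Its domain on chromosome 13 is 1150 kb long. Of its 3 peaks, peak2736 (839 bp wide) was 70176 bp and peak2735 (1216 bp) 76798 bp downstream of the TSS. These 2 lay in intron 1, 6622 bp apart, and 96.3% of all peaks were at least that far from their nearest other peak. The third, peak2734 (707 bp), lay 467515 bp downstream, in intron 78, and 7112 bp from the start of another annotated Ryr2 transcript. No peak was within 5 kb of the Ryr2 TSS. All 3 were in the domain of Ryr2 alone. Among the 500 genes of like domain length 5.6% had 3 or more peaks.

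Jph2 encodes junctophilin 2, which holds the reticulum close to the T-tubule membrane. Its peak519, at chr2:163396649-163399771, was 3123 bp wide, the 5th widest of all 3761 peaks, where the median was 703 bp and the widest 3419 bp. It covered the TSS, from 1822 bp upstream to 1300 bp downstream, and its midpoint was 261 bp upstream. A second peak, peak520 (1658 bp, with 6.81% of all peaks wider), lay 22300 bp upstream of Jph2. It fell in intron 1 of the neighbouring gene Oser1 and 721 bp upstream of the nearest annotated Oser1 start site, and it belongs to the domains of both genes. Its ratio of observed to expected CpG, 0.741, was the highest of the 15 peaks (median 0.268, and 0.212 for all peaks). The distance alone does not say which of these genes the peak acts on, and this was not tested.

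The other 6 genes of this role had no peak in their domains. They are Atp2a2, which encodes the pump SERCA2, its inhibitors Pln (phospholamban) and Sln (sarcolipin), Casq2 (calsequestrin 2, the calcium store), Trdn (triadin, which anchors it to the release channel) and Camk2d, a calcium-dependent kinase. Their nearest peaks were 91.4 kb (Sln), 166 kb (Pln), 195 kb (Casq2), 253 kb (Atp2a2), 861 kb (Camk2d) and 1146 kb (Trdn) from the TSS. The nearest peak at Camk2d entered its domain when the most 5′ start site of each gene was used.

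Of the 7 genes of calcium channels and exchange, Cacna1g alone had a peak in its domain, where like domain length gave 1.99. Cacna1g encodes the pore of the T-type channel Cav3.1. Its peak2457 (542 bp) lay 58174 bp downstream of the TSS in coding exon 33, and 1261 bp downstream of the start of another annotated Cacna1g transcript that begins inside the gene. At 61.4% its GC content was the highest of the 15 peaks, and the peak was also in the domain of Abcc3.

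The L-type pore genes Cacna1c and Cacna1d had peaks inside the gene body that the domain rule assigned to other genes. The TSS of Cacna1c lies 21 kb from that of Dcp1b and the TSS of Cacna1d 11.5 kb from that of Dcp1a, each within the body of the channel gene, so the domains are 55.3 and 63.5 kb long while the genes span 609 and 452 kb. In Cacna1c, peak1345 (2045 bp) lay 176420 bp downstream of the TSS, in intron 3, and counted towards Dcp1b and Ankrd26. In Cacna1d, peak2941 (666 bp) lay 134303 bp downstream in intron 1 and peak2940 (413 bp) 308541 bp downstream in intron 5, both counted towards Dcp1a and Chdh. From the start site of the longest Cacna1d transcript, 138 kb inside the gene, peak2941 was 3367 bp upstream, and with that start site Cacna1d had 2 peaks in its domain.

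Cacna1h (the T-type pore Cav3.2), Cacnb2 and Cacna2d1 (accessory subunits of the L-type channel) and Slc8a1 (the sodium-calcium exchanger) had no peak in domain or body. Cacna2d1, with a domain of 829 kb, had its nearest peak 2203 kb from the TSS, the farthest of the 32 genes. The nearest was 1452 kb away at Cacnb2, 893 kb at Slc8a1 and 203 kb at Cacna1h.

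Counting a peak in the domain or the gene body, a count chosen after the positions in Cacna1c and Cacna1d were seen, 13 of the 32 genes had one (40.6%, against 23.3% of all genes, not matched for length), with 18 peaks in all. In the gene body alone 8 of the 32 had a peak (25%). The same was true of 8.08% of all genes and of 19.1% of the 500 genes nearest in gene length to each.

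Of the 11 potassium channel genes, 6 had a peak (54.5%, Wilson interval 28 to 78.7%), each a single one, where like domain length gave 4.01. The interval includes the 36.5% of genes of like length. Kcnj3 and Kcnj5 encode the subunits GIRK1 and GIRK4 of the acetylcholine-activated channel of the atrium and the sinus node. Both genes had a peak near the start. At Kcnj3, peak335 (1010 bp) covered the TSS from 481 bp upstream to 528 bp downstream, with its midpoint at 23 bp, in the untranslated part of exon 1. It was the only peak in a domain of 1999 kb. The next peak on the chromosome was 2438 kb away, and 37 of the peaks (0.984%) were that far or farther from their nearest other peak. At Kcnj5, peak1856 (657 bp) lay 4110 bp upstream between genes, and it was the only peak in a domain of 250 kb. Both peaks were in the domain of 1 gene alone. The T-box match of the Kcnj3 stretch lay 38 bp upstream of the TSS.

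Kcnq1 and Kcne1 encode the pore and the accessory subunit of the slow delayed rectifier. At Kcnq1, peak1625 (605 bp, GC content 58.5%) lay 17015 bp downstream of the TSS in intron 1, and it was also in the domain of Cdkn1c. At Kcne1, peak3344 (713 bp) lay 29608 bp downstream, past the end of the gene and in the domain of Fam243 as well. This peak was nearer to the start of Fam243, at 8419 bp upstream. Both subunits of this channel thus had a peak in the domain. Of genes of like domain length, 45.6% had a peak for Kcnq1 and 15.4% for Kcne1. Both peaks were shared with another gene, and only 18.5% of all peaks were in the domain of 1 gene alone.

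Kcnd2 and Kcnd3 encode the pores Kv4.2 and Kv4.3 of the transient outward current. At Kcnd2, peak1208 (514 bp) lay 460037 bp downstream in intron 1, of a gene 514 kb long, and also in the domain of Tspan12, whose TSS was nearer at 176288 bp. At Kcnd3, peak674 (499 bp) lay 114946 bp downstream in intron 2, and also in the domain of Ddx20. Both peaks were narrower than the median of 703 bp, with 77.6 and 80.4% of all peaks wider. Neither paralogue had a peak near its start.

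Kcnh2 (the rapid delayed rectifier), Kcnj2 (the inward rectifier Kir2.1), Kcnj8 and Kcnj11 (pores of ATP-sensitive channels) and Kcna5 (the ultrarapid rectifier) had no peak. Their nearest peaks were at 179 kb (Kcnh2), 200 kb (Kcna5), 211 kb (Kcnj11), 230 kb (Kcnj8) and 991 kb (Kcnj2). The 1097 kb domain of Kcnj2 is one of the longest in the list, and of the 500 genes of like domain length 40.2% had a peak.

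Scn10a, a sodium channel gene, had no peak in its domain of 239 kb, and its nearest peak was 121 kb from the TSS. Neither pacemaker channel gene had one: the nearest was 89.8 kb from Hcn4 (domain of 289 kb) and 101 kb from Hcn2 (domain of 40.1 kb). Like domain length gave 0.35 genes with a peak for sodium and 0.506 for the pacemaker role, both under 1.

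Of the 3 connexin genes, Gja1 and Gjc1 had a peak, where like domain length gave 0.92. Gja1 encodes connexin 43, the main gap junction protein of ventricular muscle. Both of its peaks were distal and narrow: peak2138 (470 bp) lay 600590 bp and peak2139 (354 bp) 605638 bp downstream, 5048 bp apart. Of all peaks 99.8% were wider than peak2139. The next protein-coding start site past them was that of Hsf2, 506707 and 501659 bp away and thus nearer than Gja1, and both peaks were in its domain as well. The midpoint of peak2138 lay in the long non-coding RNA gene Gm36827. Gjc1 encodes connexin 45 of the conduction system and the early heart tube. Its peak2484 (774 bp) was 15918 bp upstream of the chosen TSS but 1119 bp upstream of the most 5′ annotated Gjc1 transcript, and it was also in the domain of Higd1b. Gja5, which encodes connexin 40 of atrium and conduction system, had no peak in its domain of 223 kb, and the nearest was 267 kb from the TSS.

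**Figure D3:**
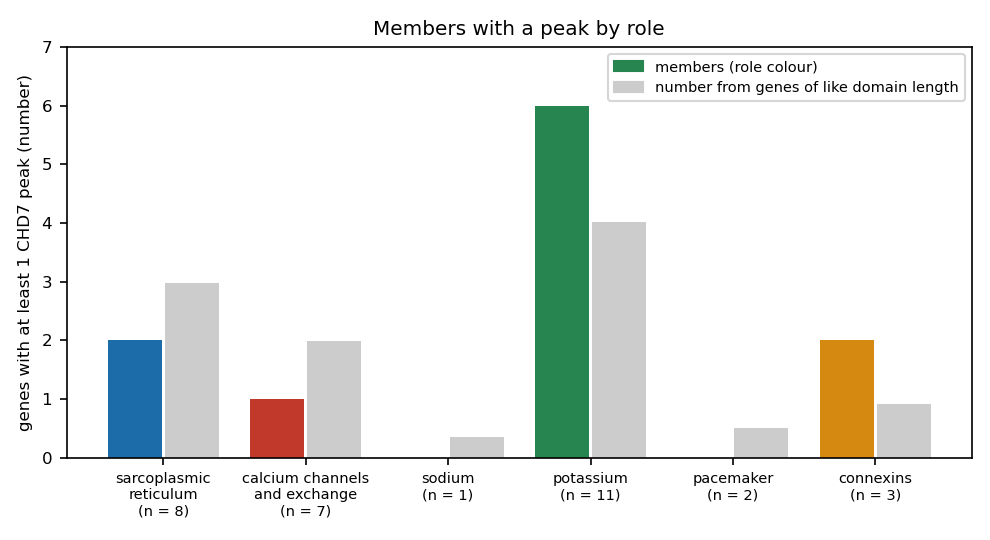
Number of genes with at least 1 CHD7 peak in the domain (vertical axis) for each role, coloured bars for the listed genes and grey bars for the number that the 500 genes nearest in domain length to each would give. Potassium channels stand at 6 against 4.01 and sarcoplasmic reticulum genes at 2 against 2.97; no bar has an error from replicates, since the peaks are 1 list.

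In all, 21 genes had no peak in the domain. The nearest peak to their TSS was at a median of 203 kb, from 64.5 kb (Cacna1d) to 2203 kb (Cacna2d1), and it was under 100 kb for 3 of them. Length did not separate them from the other 11: of the 12 domains over 500 kb, 5 had a peak, and of the 7 under 100 kb, 3 had one. The 7 long domains without a peak were those of Slc8a1, Kcnj2, Camk2d, Cacna2d1, Trdn, Pln and Cacnb2. Between 51.4 and 59.8% of the genes of like domain length had none either.

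In width and GC content the 15 peaks were close to the rest. Their median width was 707 bp (354 to 3123 bp) and that of all peaks 703 bp, and the median GC content was 47.5% for both. The median ratio of observed to expected CpG was 0.268, against 0.212 for all peaks. The median distance from the TSS was 58.2 kb, and 57.4 kb over all 6819 pairs of a gene and a peak in its domain. The nearest other peak was at a median of 46.8 kb, against 131 kb for all peaks. Neighbouring peaks at Ryr2, Jph2 and Gja1 are among the 15. The 15 peaks lay inside the body of their own gene in 8 cases (53.3%, Wilson interval 30.1 to 75.2%), against 28% of all pairs. They lay upstream in 4 cases (26.7%, 10.9 to 52%), against 44%. The genes of these 8 peaks include Ryr2, Kcnd2 and Kcnq1, which span 554, 514 and 321 kb, and Ryr2 alone gave 3 of the 8. The intervals in this paragraph take the 15 peaks as independent, although some of them lie at the same gene. They are thus too narrow to show a difference from all pairs or all peaks. Peaks over 400 kb from the TSS made up 4 of 15 (26.7%, 10.9 to 52%), against 8.05% of all pairs. Of these, 2 are the neighbouring peaks of Gja1, and the others belong to Ryr2 and Kcnd2. At nearer cuts the shares were alike. Over 50 kb lay 53.3% of the 15 peaks and 53.5% of all pairs, and over 100 kb 33.3% and 35.5%. Peaks in the domain of 1 gene alone made up 6 of 15 (40%, 19.8 to 64.3%), against 18.5% of all peaks: 3 at Ryr2 and 1 each at Jph2, Kcnj3 and Kcnj5. These shares were not matched for gene length or domain length, and the part of length was not tested.

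**Figure D4:**
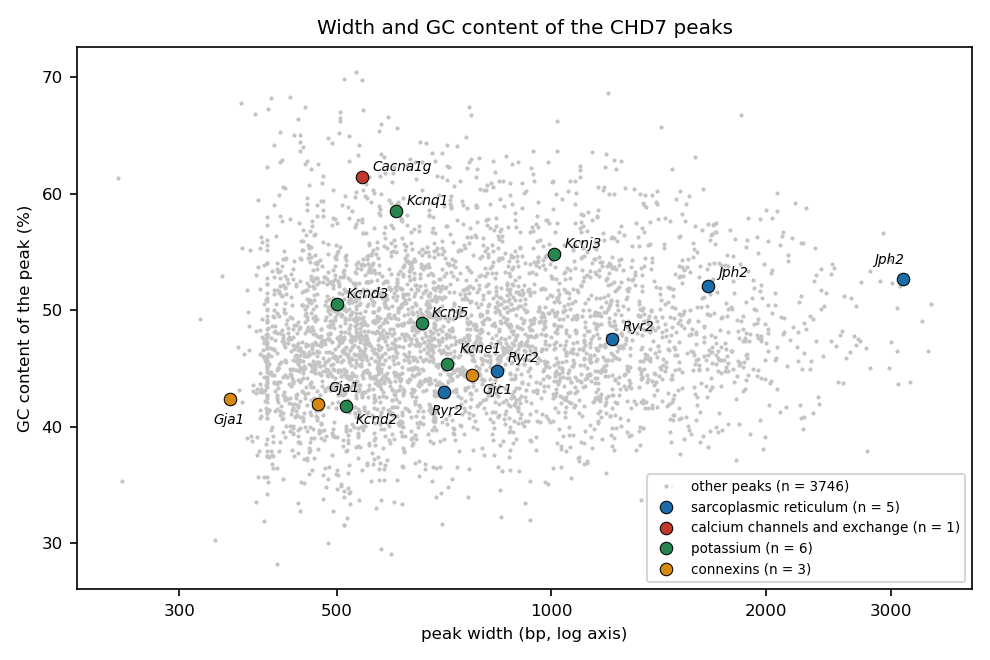
GC content (vertical axis, percent) against width (horizontal axis, bp, log scale) of all 3761 CHD7 peaks. The 15 peaks in domains of the channel and calcium genes are coloured by role and named, and the other 3746 are grey. The Jph2 peak at the TSS lies at the wide end at 3123 bp and a Gja1 peak at the narrow end at 354 bp.

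Motifs were counted in the 200 bases around each midpoint, on both strands. The GATA motif (AGATAA) was in none of the 15 windows and in 11.8% of all 3761, and 0 of 15 allows a share of up to 20% (3 of 15). The count of 0 depends on the window: with 400 bases it was in 2 of 15 (13.3%, against 22.2% of all peaks). With the whole peak it was in 4 of 15 (26.7%, against 36.8% of all peaks): both intron 1 peaks of Ryr2, the Jph2 peak at the TSS and the Kcne1 peak. T-box matches (AGGTGT) were in the windows of Kcnj3, Kcnd3 and Cacna1g (20%, against 11.4%). NKX2 matches (CACTTNA) were in those of Ryr2 peak2735 and Jph2 peak520 (13.3%, against 11.4%), both as CACTTGA. CDX matches (CATAAA) were in those of Ryr2 peak2735, Kcnd2 and Gjc1 (20%, against 9.12%). MEIS matches (TGACAG) were at Kcnj5, with 2, and at Gja1 peak2139 (13.3%, against 15.3%), and the TEAD motif was in 1 window, that of Kcnd2 (6.67%, against 11.8%). The GGGCGG box of SP and KLF factors was in 1, that of Kcnj3 (6.67%, against 8.69%), and the E-box CAGCTG in those of Kcnj3, Kcnd3 and Gjc1 (20%, against 11.6%). ISL1, MEF2, CTCF (CCACNAGG) and CArG motifs were in none of the 15 windows, against 3.51, 1.89, 3.35 and 0.904% of all peaks. For ISL1 this too depends on the window: over the whole peak, the Kcnd2 peak held 1 match. With 15 windows each of these shares has an interval that includes the share of all peaks or, at 0, lies below the limit that the count allows.

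Another 40 genes of excitation and calcium handling, such as further subunits, pumps and store proteins, were counted in the same way. Of these, 15 had a peak in the domain (37.5%), with 11.8 from genes of like domain length, and none shared a peak with the 32 genes. The 5 with most peaks had 2 each, among them Kcnip2, the subunit that partners the Kv4 pores of Kcnd2 and Kcnd3, Itpr1, an inositol trisphosphate receptor, and Atp2b1, a plasma membrane calcium pump.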

How the data were processed

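CUT&RUN was analysed from WT CP cells at day 5 with anti-CHD7, anti-IgG or input (3 replicates each, 9 libraries). Per the labels and the study's methods, the authors trimmed reads with fastp 0.20.1, aligned them to mm10 with BWA 0.7.17.4, removed duplicates, called peaks with MACS2 2.1.2 against IgG, and kept peaks present in at least 2 replicates. The deposited values are positions in bp, with no score and no depth. The calling threshold is not given in the sources used here. Reads of the control libraries were not used here.

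Starts were read as counted from 0, peaks were numbered by their order in the list, and coordinates are given from 1. Each gene had 1 TSS (GENCODE M21, protein-coding transcripts first, then APPRIS level, then spliced length). Bases were read from GRCm38.p6 with pysam 0.24.0 (Python 3.11.15, numpy 2.4.6, pandas 2.3.3, scipy 1.17.1). No test was made, since there is 1 list. Intervals are Wilson or exact Poisson at 95% and cover counting error only. They take genes and peaks as independent, which peaks of the same gene need not be. Domains, assignment and motif search were checked on simulated data. The 32 genes and all lists were chosen with earlier results of these data known. All 32 genes are named, and of the other 40 those with most peaks, up to 4.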

Additional observations from a re-analysis of the deposited data

How the results depend on the processing

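No paired analysis was possible because the 3 replicates share 1 list of positions, and leaving out each replicate could not be run for the same reason. With the basal domain alone 3 of the 32 genes (9.38%) and 3 peaks were left, against 3.16% of all genes and 3.15%, or 1.01 genes, at like length, which here is all other genes (median distance 0.261 kb). With the single nearest gene there were 6 genes (18.8%) and 8 peaks, against 14.2% of all genes and 22.1% at like length. Cacna1g, Gja1, Gjc1, Kcnd2 and Kcne1 then had none. With peaks wider than the median there were 5 genes (15.6%) and 8 peaks, against 13% of all genes and 19.2% at like length. The median distance was 26 kb, and 1877 of the 3761 peaks were counted in this setting. With an extension of up to 100 kb there were 8 genes (25%) and 10 peaks, against 17% of all genes and 21.2% at like length. The median distance was 19.7 kb, and Gja1, Kcnd2 and Kcnd3 had no peak. The share at like length was 34.7% with the start site of the longest transcript, 35.1% with 100 genes nearest in length and 34.8% within 10 equal classes of all genes by length. GATA matches were in 13.3% of the 15 windows at 400 bp and in 26.7% of whole peaks. The number of genes with a peak was 11 to 13 with the other start sites, any overlap, merged peaks, starts counted from 1, and the domain or gene body, the last chosen after seeing the data. The depth of the libraries is unknown, and the number of peaks limits what can be seen at single genes.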
